A study of Homo sapiens with 4 samples.

Results

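The liver X receptors and the genes of cellular sterol efflux were followed in CaSki cells, a human papillomavirus-positive line of cervical squamous carcinoma. The set holds NR1H3 and NR1H2, which encode the receptors LXRα and LXRβ, and ABCA1, ABCG1, APOE, PLTP, SREBF1, MYLIP, LPCAT3 and SMPDL3A. ABCA1 had one of the largest rises in earlier results from the same 4 arrays, which prompted the choice of the set, and the other genes were chosen by function. Every probe set whose annotation gave exactly 1 gene symbol, that of a member, was kept. This gave 25 probe sets for 9 of the 10 genes, out of 54613 probe sets that were not controls and 19775 genes. NR1H2 was not analysed here.

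The study asked which genes ZNF750 regulates in squamous carcinoma cells. ZNF750 is a zinc finger protein known for driving terminal differentiation of the epidermis. All cells were CaSki cells in DMEM, for which the labels give 0% fetal bovine serum, and all had received a lentivirus. Of the 4 Affymetrix HG-U133 Plus 2.0 arrays, hybridised with biotin-labelled cRNA made from total RNA, 2 came from cells expressing GFP as the control and 2 from cells expressing ZNF750. The design text calls the 2 arrays of a group biological duplicates without saying how the cultures were kept apart. The spread between them may therefore be partly technical.

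LXRα and LXRβ are nuclear receptors that pair with a retinoid X receptor, bind oxysterols made from cholesterol, and raise transcription of genes that remove sterol from the cell. ABCA1 and ABCG1 pump cholesterol and phospholipid to lipoprotein acceptors outside the cell, and APOE is such an acceptor. MYLIP marks lipoprotein receptors for degradation and so lowers sterol uptake. In the epidermis LXR activity is known for promoting keratinocyte differentiation and lipid barrier formation.

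The receptor pair recognises DR4 elements, which are 2 copies of AGGTCA in the same orientation with 4 bases between them. RefSeq promoter windows (GRCh38.p14, 250 bases before to 50 after a start site) were found for 8 of the 10 genes, 14 windows in all, and are shown for ABCA1 and MYLIP because these genes hold the largest differences among the members. Both are written 5′ to 3′ on the strand of the gene and end at the base before the start site. The first lies at chr9:104928156-104928405 on the minus strand, with its best DR4 match in capitals. The second lies at chr6:16128836-16129085 on the plus strand, with its GC boxes (GGGCGG) in capitals.

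ABCA1: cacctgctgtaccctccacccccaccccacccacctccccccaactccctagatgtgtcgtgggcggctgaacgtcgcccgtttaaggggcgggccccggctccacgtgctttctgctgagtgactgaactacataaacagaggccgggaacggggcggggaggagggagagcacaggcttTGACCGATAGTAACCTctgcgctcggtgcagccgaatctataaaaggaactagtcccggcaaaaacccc
MYLIP: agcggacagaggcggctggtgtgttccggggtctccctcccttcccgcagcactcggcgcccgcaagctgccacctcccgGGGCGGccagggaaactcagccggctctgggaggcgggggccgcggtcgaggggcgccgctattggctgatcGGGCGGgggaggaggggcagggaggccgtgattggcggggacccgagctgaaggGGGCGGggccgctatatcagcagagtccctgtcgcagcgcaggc

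The ABCA1 match lay on the strand opposite the gene, at chr9:104928209-104928224, 69 to 54 bases before the start site. It is shown on its own strand, with the 2 repeat units in capitals, because it was the closest DR4 match in any member window.

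ABCA1 match: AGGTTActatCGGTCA

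It differed from the DR4 consensus by C5T and A11C, counted from 1 at its 5′ end. DR4 matches with at most 2 mismatches among the 12 fixed bases, on either strand, were present in 2.34% of the 35116 RefSeq promoter windows. PLTP had the next closest matches, a pair with 3 mismatches each, a number of mismatches that 18.6% of all windows reached or bettered. The best match in every other member window had 4 or more mismatches, and 72.5% of all windows have a match with 4 or fewer. The absence of these letters from a window of this size says nothing about other positions.

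The ABCA1 window also held 3 GC boxes, 1 E-box (CACGTG) and 1 TATA box (TATAAA), the last 31 to 26 bases before the start site. The MYLIP window held 3 GC boxes and 2 CCAAT boxes (CCAAT) on the opposite strand, and no TATA box. On both strands, 45% of all windows held a GC box, 34.6% a CCAAT box, 11.5% a TATA box and 7.26% an E-box. The motif CCNNAGGC, described for ZNF750, was found in neither the ABCA1 nor the MYLIP window. It was found once in an APOE, an NR1H2, an NR1H3 and the SREBF1 window and 3 times in another NR1H3 window, against 27.5% of all windows with at least 1 match. None of these matches overlapped a match of another motif in a member window.

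**Figure D1:**
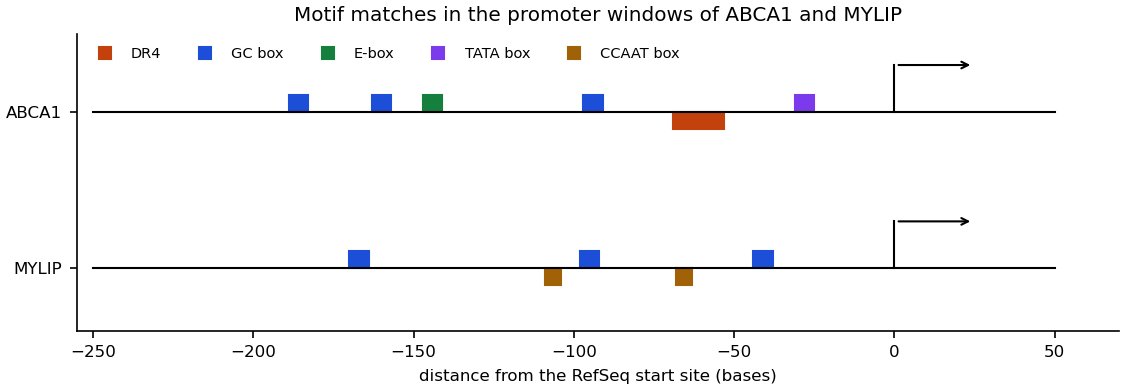
Motif matches in the ABCA1 and MYLIP promoter windows, by distance in bases from the RefSeq start site; boxes above the line are on the strand of the gene and boxes below it on the opposite strand. The ABCA1 window holds the DR4 match at -69 to -54, between a GC box and a TATA box, while the MYLIP window holds 3 GC boxes and 2 CCAAT boxes.

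ABCA1 is also a known target of miR-33, whose copies are carried within the genes of the sterol-responsive factors SREBF2 and SREBF1. The mature sequences are shown, with the seed (bases 2 to 8) in capitals, because 1 host gene is a member here and the other was measured beside it.

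hsa-miR-33a-5p: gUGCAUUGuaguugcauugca
hsa-miR-33b-5p: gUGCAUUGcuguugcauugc

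Both have the same seed, and they differ at 2 bases over their shared length. The first lies at chr22:41900949-41900969 (plus strand) within SREBF2 and the second at chr17:17813897-17813916 (minus strand) within SREBF1. Neither miRNA was analysed here, and the values below are those of the host transcripts.

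Array-wide measures came first. The array medians lay between 5.45 and 5.51 on the log2 scale, and the lowest correlation over probe sets within a group (0.9968) was above the highest between groups (0.9937). The only ZNF750 probe set read 2.25 ± 0.17 with GFP and 2.26 ± 0.041 with ZNF750 (SD, n = 2 each), so it did not show the introduced gene. Its probe positions were not used here, it does not check the labels, and the arrays are called ZNF750-labelled. For ACTB, whose control probe sets at both ends of the transcript report RNA quality, the 3′ signal exceeded the 5′ signal by 2.92 ± 0.15 with GFP and 3.56 ± 0.29 with ZNF750 (SD, n = 2 each). For GAPDH the excess was 0.62 ± 0.0097 and 0.82 ± 0.037. Both groups were apart on these controls, and their part in the differences below was not tested.

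All 7 epithelial markers measured (EPCAM, CDH1, KRT5, KRT8, KRT18, KRT19 and SFN) lay above the median gene on all 4 arrays. Limma called 4 of them: KRT5 (0.24 ± 0.03), EPCAM (0.18 ± 0.05) and KRT19 (0.16 ± 0.04) were higher and KRT18 (-0.34 ± 0.04) lower in the ZNF750-labelled arrays, and their part in the differences below was not tested. Of the markers of other cell types, all 8 of macrophages (CD14 and CSF1R among them) and all 5 of endothelium lay below the median gene on every array, and so did 5 of 6 of fibroblasts, with COL1A1 above it. Their summed linear signals were 256 to 263 with GFP and 269 to 273 with ZNF750 for the macrophage list, 404 to 465 and 473 to 509 for the fibroblast list, and 151 to 173 and 157 to 181 for the endothelial list. Limma called 0 of these 19 genes, and 1 had an unadjusted p under 0.05. The macrophage, fibroblast and epithelial sums lay wholly higher in the ZNF750-labelled arrays, as did 29.9% of all single probe sets. The epithelial sum was 51744 to 52063 with GFP and 54506 to 54700 with ZNF750. The part of these sums in the differences below was not tested.

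Differences between groups are ZNF750-labelled minus GFP on the log2 scale with limma's standard error (n = 2 arrays per group), and 1 unit is a 2-fold difference. A feature is called where its Benjamini-Hochberg adjusted p in a limma fit over the whole table is under 0.05. The differences of the members are the values that stood behind the choice of the set, so they are given as a description without p-values. In bulk RNA, more RNA per cell and a larger share of cells with that RNA cannot be told apart.

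NR1H3, ABCA1 and MYLIP were higher in the ZNF750-labelled arrays, and the other 6 genes measured had no called probe set. In all, 7 of the 25 member probe sets were called higher, beside 4.3% of all probe sets, and 0 were called lower, beside 7.19% of all probe sets. No member probe set below 0 had an unadjusted limma p under 0.05. The ZNF750-labelled arrays lay wholly above the GFP arrays for 14 member probe sets, a state that 29.9% of all probe sets share. They lay wholly below for 2, as did 24.3% of all probe sets, and the groups overlapped for the remaining 9. The median difference was 0.22 over the member probe sets and 0.03 over all probe sets. Because ABCA1's difference entered the choice, nothing is read from these counts.

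**Figure D2:**
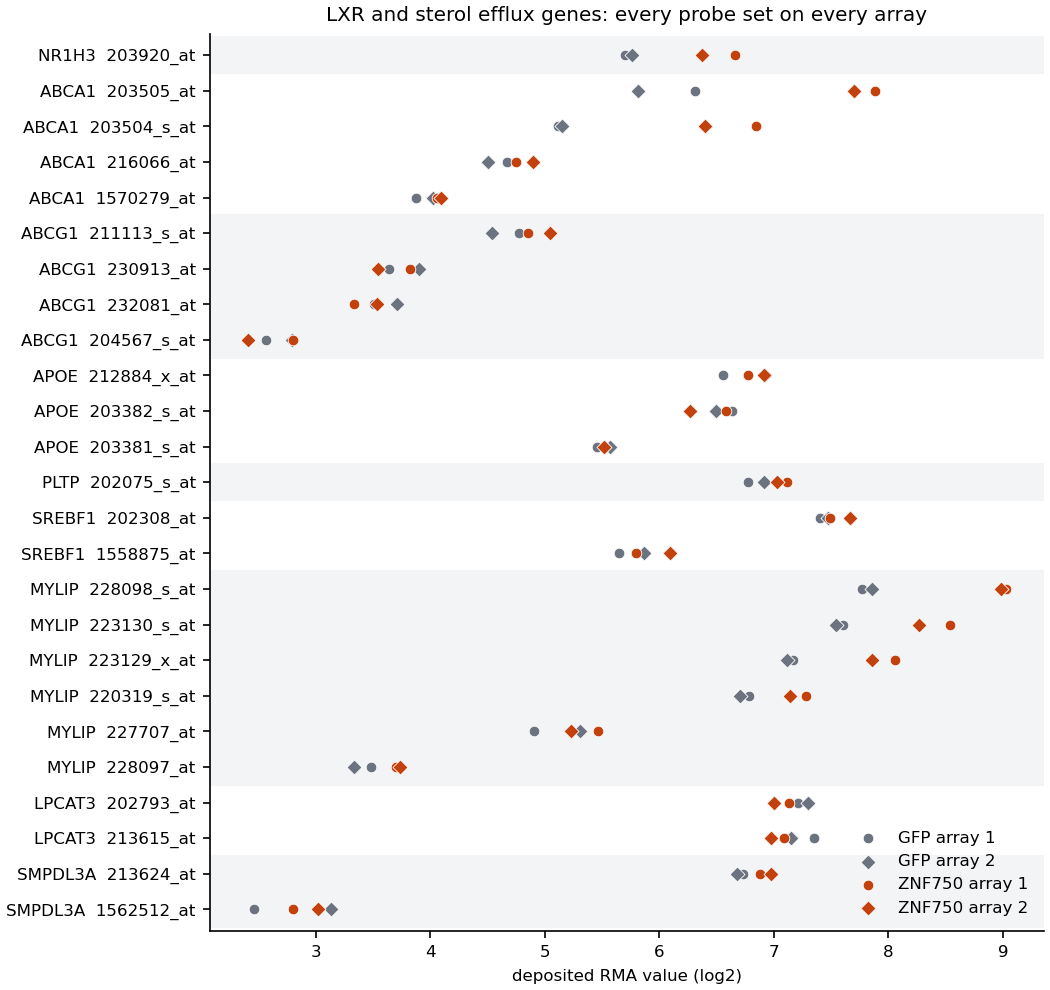
Deposited log2 value of each of the 25 member probe sets on each of the 4 arrays; grey marks are GFP and orange marks ZNF750-labelled arrays, circles replicate 1 and diamonds replicate 2. The groups are widest apart for ABCA1 203505_at and 203504_s_at and for MYLIP 228098_s_at, and lie close together or overlap for ABCG1, APOE, PLTP, SREBF1, LPCAT3 and SMPDL3A. Levels of different probe sets cannot be compared with each other.

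Of the receptors, NR1H3 was measured by 1 probe set, 203920_at. It read 5.70 and 5.76 on the GFP arrays and 6.66 and 6.37 on the ZNF750-labelled arrays. Both ZNF750-labelled values lay above both GFP values, by a distance larger than the spread within either group. The difference was 0.79 ± 0.12 (95% interval 0.50 to 1.07), or 1.72-fold. Leaving out an array moved it between 0.64 and 0.93, and it was not called without GFP replicate 1, GFP replicate 2 or ZNF750 replicate 1.

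ABCA1, the pump that loads cholesterol onto lipid-poor apolipoproteins, had 4 probe sets that disagreed in size. The brightest, 203505_at, read 6.31 and 5.81 with GFP and 7.88 and 7.70 with ZNF750. Even the higher GFP array lay well under both ZNF750-labelled arrays, although the GFP arrays differed from each other more than the ZNF750-labelled ones did. The difference was 1.73 ± 0.16 (1.36 to 2.11), or 3.32-fold, and ranked 15th from the top among the 54613 probe sets. Probe set 203504_s_at read 5.12 and 5.15 with GFP and 6.84 and 6.40 with ZNF750, a difference of 1.49 ± 0.15 (1.13 to 1.84), or 2.80-fold. Here the GFP arrays were nearly equal and the spread lay between the ZNF750-labelled arrays.

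The remaining ABCA1 probe sets were dim, below the median probe set on all 4 arrays, and were not called. Probe set 216066_at read 4.67 and 4.51 with GFP and 4.75 and 4.90 with ZNF750 (0.24 ± 0.13, interval -0.06 to 0.53). Probe set 1570279_at read 3.87 and 4.02 with GFP and 4.06 and 4.10 with ZNF750 (0.13 ± 0.12, interval -0.15 to 0.41). Both had ZNF750-labelled values above GFP values, by less than the called probe sets. RMA understates fold changes of dim probe sets, and which part of the transcript each probe set reads was not used here. Averaged over its probe sets, ABCA1 differed by 0.90 in place of 1.73.

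ABCG1, which passes cholesterol on to larger lipoprotein particles, gave no called probe set among 4, all of them below the median probe set on every array. The brightest, 211113_s_at, read 4.78 and 4.54 with GFP and 4.86 and 5.05 with ZNF750, a difference of 0.30 ± 0.14 (interval -0.03 to 0.62). Its groups were apart by a small margin. The other probe sets pointed the other way, each with groups that overlapped. They differed by -0.09 ± 0.15 for 230913_at, -0.18 ± 0.13 for 232081_at and -0.07 ± 0.15 for 204567_s_at. The ABCG1 average was -0.01, so its sign rested on the choice of probe set.

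MYLIP, also called IDOL, is the ubiquitin ligase through which LXR lowers lipoprotein receptors, and 4 of its 6 probe sets were called higher. The brightest, 228098_s_at, read 7.77 and 7.86 with GFP and 9.03 and 8.98 with ZNF750. The arrays of each group lay close together, and the groups were 1.19 ± 0.07 apart (1.03 to 1.35), or 2.28-fold. Probe set 223130_s_at read 7.60 and 7.54 with GFP and 8.54 and 8.27 with ZNF750, a difference of 0.83 ± 0.10, or 1.78-fold. Probe set 223129_x_at read 7.16 and 7.11 with GFP and 8.06 and 7.85 with ZNF750, a difference of 0.82 ± 0.09, or 1.77-fold. In both, ZNF750 replicate 1 read above replicate 2 and all values lay above those of GFP.

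The fourth called MYLIP probe set, 220319_s_at, read 6.78 and 6.71 with GFP and 7.28 and 7.14 with ZNF750, a smaller difference of 0.47 ± 0.09 (1.38-fold). The called probe sets all carry a suffix (_s_at or _x_at) that marks probes able to read more than 1 transcript. Both without it were dim and not called. Probe set 227707_at read 4.91 and 5.31 with GFP and 5.47 and 5.23 with ZNF750, so its groups overlapped (0.24 ± 0.16). Probe set 228097_at read 3.49 and 3.33 with GFP and 3.70 and 3.74 with ZNF750, with its groups apart by a small margin (0.31 ± 0.12). Averaged over 6 probe sets MYLIP differed by 0.64.

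These called probe sets kept their sign in each of the 10 alternative settings run on every probe set, but every call needed both GFP arrays. Both ABCA1 probe sets and MYLIP 228098_s_at, 223130_s_at and 223129_x_at were called in 8 of the 10 settings, the exceptions being the fits without GFP replicate 1 or without GFP replicate 2. With either of these arrays left out, most genes called with all 4 arrays also lost their calls. This loss is therefore not particular to the members or to the genes of the pathway lists below. The GFP arm then holds 1 array whose spread is assumed from the other group. MYLIP 220319_s_at was called in 5 of the 10, and not without an intensity trend or without any of the 4 arrays. The leave-one-out differences ran from 1.48 to 1.98 for ABCA1 203505_at, from 1.26 to 1.71 for ABCA1 203504_s_at and from 1.15 to 1.23 for MYLIP 228098_s_at.

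**Figure D3:**
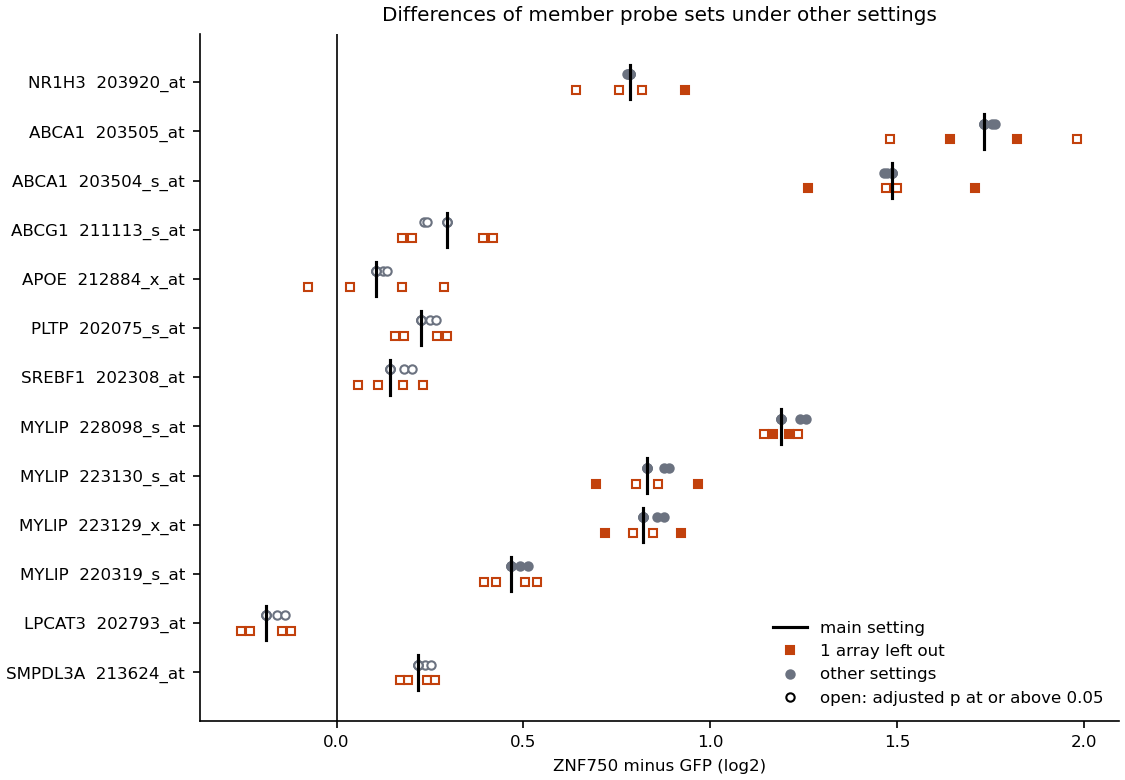
Difference of the called member probe sets and of the brightest probe set of each other member, under the main setting (black line), with 1 array left out (orange squares) and under the other settings (grey circles); filled marks are called at an adjusted p under 0.05. The ABCA1 marks are filled in fits without a ZNF750 array and open in those without a GFP array, and all marks of the called probe sets lie above 0.

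SREBF1, the LXR target that switches on fatty acid synthesis and hosts miR-33b, differed little. Probe set 202308_at read 7.40 and 7.47 with GFP and 7.49 and 7.67 with ZNF750, a difference of 0.14 ± 0.09 (interval -0.06 to 0.35). Its groups were apart by only a few hundredths of a log2 unit. Probe set 1558875_at read 5.65 and 5.87 with GFP and 5.80 and 6.10 with ZNF750, with groups that overlapped (0.19 ± 0.14, interval -0.13 to 0.51).

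The lipoprotein genes were not called either. APOE, the acceptor apolipoprotein that cells secrete, had 3 probe sets and groups that overlapped in each. Probe set 212884_x_at read 6.56 and 6.92 with GFP and 6.77 and 6.91 with ZNF750 (0.11 ± 0.13, interval -0.20 to 0.41). Probe set 203382_s_at read 6.64 and 6.49 with GFP and 6.58 and 6.27 with ZNF750 (-0.14 ± 0.12, interval -0.43 to 0.15). The APOE signs were thus mixed, and 203381_s_at, at 5.46 and 5.57 with GFP and 5.51 on both ZNF750-labelled arrays, differed by 0.00 ± 0.11 (interval -0.25 to 0.25). These intervals leave out a 2-fold difference of either sign.

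PLTP moves phospholipid between lipoproteins. Its probe set 202075_s_at read 6.78 and 6.92 with GFP and 7.12 and 7.03 with ZNF750, a difference of 0.23 ± 0.09 (0.01 to 0.44), or 1.17-fold. All ZNF750-labelled values lay above the GFP values, and PLTP was not called in any setting.

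The membrane lipid enzymes had small differences of opposite sign, none of them called. LPCAT3, which places polyunsaturated chains into phospholipids, read 7.22 and 7.30 with GFP and 7.14 and 7.0 with ZNF750 for 202793_at (-0.19 ± 0.09, interval -0.39 to 0.02). Its second probe set, 213615_at, read 7.35 and 7.15 with GFP and 7.09 and 6.98 with ZNF750 (-0.22 ± 0.10, interval -0.45 to 0.01). Both LPCAT3 probe sets had ZNF750-labelled values below all GFP values, and these were the only members of which that was so. SMPDL3A, a secreted phosphodiesterase induced by LXR in macrophages, read 6.73 and 6.68 with GFP and 6.88 and 6.97 with ZNF750 for 213624_at (0.22 ± 0.09, interval 0.01 to 0.42). Its dim probe set 1562512_at read 2.46 and 3.13 with GFP and 2.80 and 3.02 with ZNF750, with groups that overlapped (0.12 ± 0.21).

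**Figure D4:**
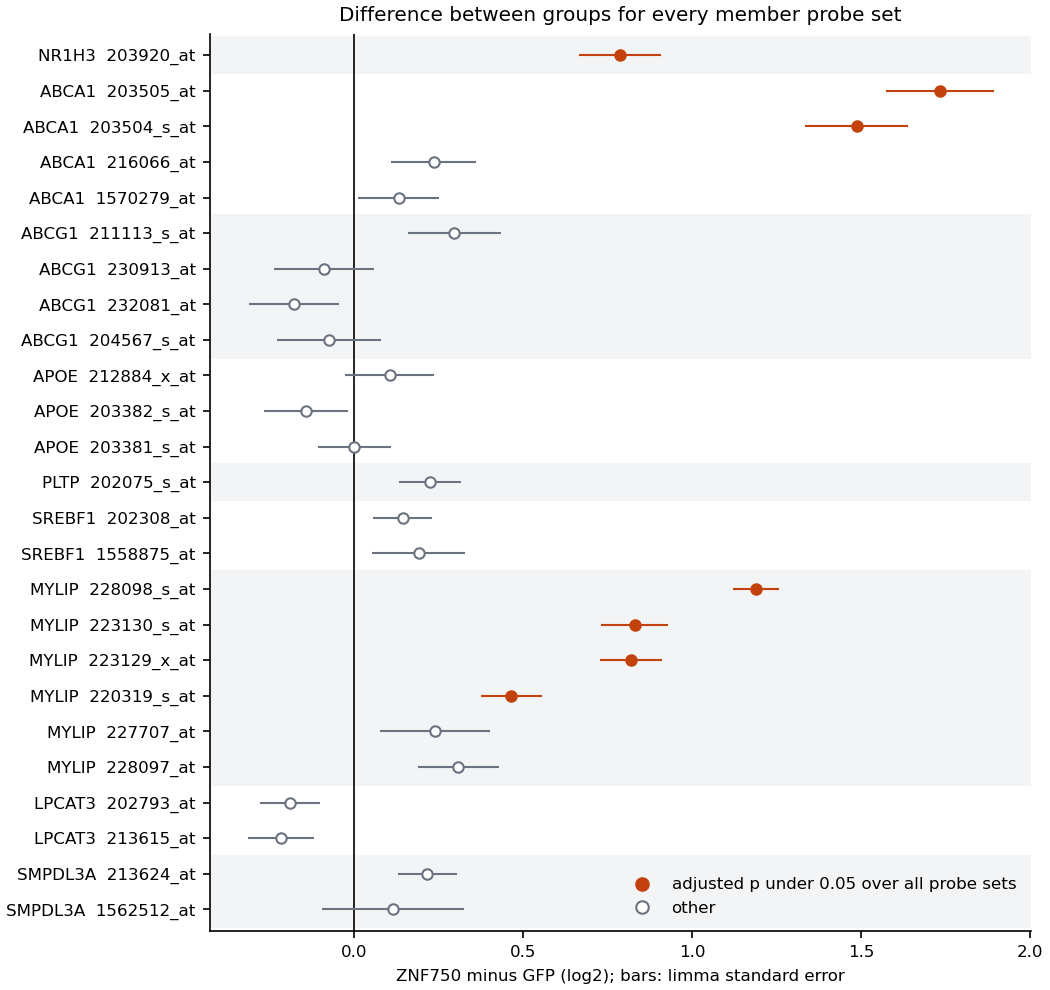
ZNF750-labelled minus GFP difference of each member probe set on the log2 scale, with limma's standard error (n = 2 arrays per group) as bars; filled orange points are called. The called points are NR1H3, a pair of ABCA1 probe sets and 4 MYLIP probe sets, from 0.47 to 1.73, while all others lie between -0.22 and 0.31.

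The pathway around the members was read from 7 lists of other genes, each gene by its brightest probe set. Of the 94 list genes, 81 were measured, and 7 of these were called higher and 8 lower. Over all genes, 7.79% were called higher and 10.2% lower, with a median difference of 0.04, against 0.06 over the list genes. The shares of list genes called lie near these backgrounds. The adjusted p-values that follow are from limma over 19775 genes. Counts at an unadjusted p under 0.05 have no share over all genes beside them. The backgrounds above are for adjusted p, so nothing is read from the unadjusted counts.

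Among the 10 LXR partners and coregulators measured, 1 was called higher and 0 lower, with a median difference of 0.03; at an unadjusted limma p under 0.05, 3 were higher and 1 lower. NRIP1, a corepressor and coactivator of nuclear receptors, rose by 0.42 ± 0.06 (adjusted p = 0.003) and was not called without GFP replicate 1 or GFP replicate 2. RXRA, the obligate partner, differed by -0.15 ± 0.06 (adjusted p = 0.139). NR0B2, an inhibitory receptor without a DNA-binding domain, differed by 0.33 ± 0.12 (adjusted p = 0.103) and TBL1XR1, the brightest gene of the list and a corepressor subunit, by 0.00 ± 0.04 (adjusted p = 0.964). The 6 TBL1XR1 probe sets ranged from -0.37 to 0.46, and 1 of them was called higher. Without shared-probe suffixes, where NRIP1 had no probe set, 0 of 7 genes were higher and 1 was lower. That was the coactivator NCOA1 (-0.53), named after its values were seen. Under cyclic loess, second quantile normalization and the replicate block, and without genes below the median level, 2 were higher and 0 lower. These were NRIP1 and NCOA2 (0.23 to 0.30), the latter also named after its values were seen.

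Of the 16 other LXR target genes measured, 1 was called higher and 0 lower, with a median of 0.15; 3 were higher and 0 lower at an unadjusted limma p under 0.05. That gene was SCD, which makes monounsaturated fatty acids and rose 2.92-fold (1.54 ± 0.08). SCD was called in each of the 10 settings in which it could be tested, although its 4 probe sets ranged from 0.23 to 1.54. FASN, the fatty acid synthase, differed by 0.04 ± 0.06 (adjusted p = 0.684). APOC1 differed by 0.38 ± 0.12 (adjusted p = 0.076), and RNF145, the brightest of this list and a ubiquitin ligase of sterol sensing, by 0.16 ± 0.08 (adjusted p = 0.247). The 3 RNF145 probe sets ranged from -0.05 to 0.41, and 1 of them was called higher. Cyclic loess, a second quantile normalization, the replicate block and leaving out genes below the median level each gave 2 called genes in this list, SCD and APOC1, and without shared-probe suffixes, where SCD had no probe set, 0 of 10 were called.

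For the enzymes that make or inactivate oxysterols, the LXR ligands, limma called 0 of 7 in either direction and 0 had an unadjusted p under 0.05. By brightest probe set, CYP27A1, the mitochondrial sterol 27-hydroxylase, differed by 0.20 ± 0.10 (adjusted p = 0.193) and the sulfotransferase SULT2A1 by 0.14 ± 0.15 (adjusted p = 0.576). The other SULT2A1 probe set differed by 0.40, and with probe sets of shared-probe suffix left out SULT2A1 was called higher, 1 of 6 genes. That call lay close to the threshold (limma adjusted p = 0.0497 in that fit). Both SULT2A1 probe sets were dim, the brighter averaging 3.52 with GFP and 3.66 with ZNF750. The median of the list was 0.12. No sterol or oxysterol was measured.

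Sterol transport, esterification and lipoprotein acceptor genes held most of the falls: of 16, 2 were called higher and 6 lower, with a median of -0.10. LIPA, the lysosomal acid lipase that frees cholesterol from its esters, fell by 0.61 ± 0.06 (adjusted p = 0.001), and LCAT, a cholesterol esterifying enzyme of plasma, fell by 0.53 ± 0.09 (adjusted p = 0.009). CAV1, the brightest gene of the list and the main coat protein of caveolae, fell by 0.21 ± 0.03 (adjusted p = 0.004). The remaining called falls, named after their values were seen, were NPC2, a lysosomal cholesterol carrier (-0.34 ± 0.04), SOAT1, which esterifies cholesterol (-0.30 ± 0.07), and NCEH1, which hydrolyses its esters (-0.26 ± 0.06). GRAMD1C, a sterol carrier of the endoplasmic reticulum, rose by 0.75 ± 0.16 (adjusted p = 0.018) and APOA1, the main acceptor for ABCA1, by 0.44 ± 0.11 (adjusted p = 0.036). Both were dim, below the array medians on all 4 arrays. GRAMD1C averaged 3.84 with GFP and 4.60 with ZNF750, and APOA1 4.15 and 4.59. In the fit over all probe sets, 0 of the 3 APOA1 probe sets were called. NPC1, which hands cholesterol out of the lysosome, differed by -0.04 ± 0.07 (adjusted p = 0.730).

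Several of these calls depended on the probe set or on an array. Averaged over probe sets, LIPA differed by -0.07 (adjusted p = 0.622), LCAT by -0.23 (adjusted p = 0.131) and APOA1 by 0.23 (adjusted p = 0.193). The 2 LIPA probe sets pointed opposite ways, at -0.61 and 0.46, and only the first was called. LCAT differed by 0.08 (adjusted p = 0.748) without shared-probe suffixes. Without GFP replicate 1 or without GFP replicate 2, none of the called genes of this list kept its call. Most genes called with every array also lost their calls in these fits, so that loss is not particular to this list. Without ZNF750 replicate 1 or replicate 2, SOAT1, NCEH1, GRAMD1C and APOA1 were not called, and LCAT was not called without ZNF750 replicate 2. Without an intensity trend, SOAT1, NCEH1, GRAMD1C and CAV1 were not called.

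The SREBP2 arm, which raises sterol synthesis and uptake, and the receptors that MYLIP degrades gave 1 gene higher and 1 lower among 10 measured, against 1 higher and 3 lower at an unadjusted limma p under 0.05. With the mean of probe sets, 0 were called higher and 3 lower, namely LRP8, VLDLR and HMGCS1, the last a sterol synthesis enzyme named after its values were seen. The list median was -0.06 and turned to 0.01 under cyclic loess. SREBF2, host of miR-33a, rose by 0.30 ± 0.07 (adjusted p = 0.032), and its probe sets averaged 0.12 (adjusted p = 0.267). SREBF2 was not called with any of the 4 arrays left out or without an intensity trend. LRP8, a lipoprotein receptor and MYLIP substrate, fell by 0.56 ± 0.08 (adjusted p = 0.004), and 3 of its 3 probe sets were called lower. It was not called without GFP replicate 1 or GFP replicate 2. The related receptor VLDLR differed by -0.25 ± 0.08 (adjusted p = 0.081). SQLE, a sterol synthesis enzyme and the brightest gene of the list, differed by -0.07 ± 0.07 (adjusted p = 0.555), with 1 of its 4 probe sets called lower, at -0.54. MYLIP acts on receptor protein, which was not measured.

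Of 11 other ABCA and ABCG transporters, limma called 0, while 2 were higher and 1 lower at an unadjusted p under 0.05. ABCA12, the lipid carrier of the epidermal barrier, differed by 0.30 ± 0.12 (adjusted p = 0.139) at a dim level, ABCA13 by -0.28 ± 0.09 (adjusted p = 0.086) and ABCA7, the brightest of them, by 0.10 ± 0.09 (adjusted p = 0.488). The median was 0.07.

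Among 11 related nuclear receptors, 2 were called higher and 1 lower, with a median of 0.10. PPARD, the PPAR form found in most tissues and active in keratinocyte differentiation, rose 1.78-fold (0.83 ± 0.06) and was not called without GFP replicate 1. The 4 PPARD probe sets ranged from 0.17 to 0.83, and 3 of them were called higher. RORA, an orphan receptor with sterol ligands, rose 1.66-fold (0.73 ± 0.10, adjusted p = 0.003), with 4 of its 8 probe sets called higher and its lowest probe set at -0.31. PPARG, the regulator of fat cell formation that also acts upstream of NR1H3 in macrophages, fell by 0.55 ± 0.10 (adjusted p = 0.008). RORA and PPARG were not called without GFP replicate 1 or GFP replicate 2.

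**Figure D5:**
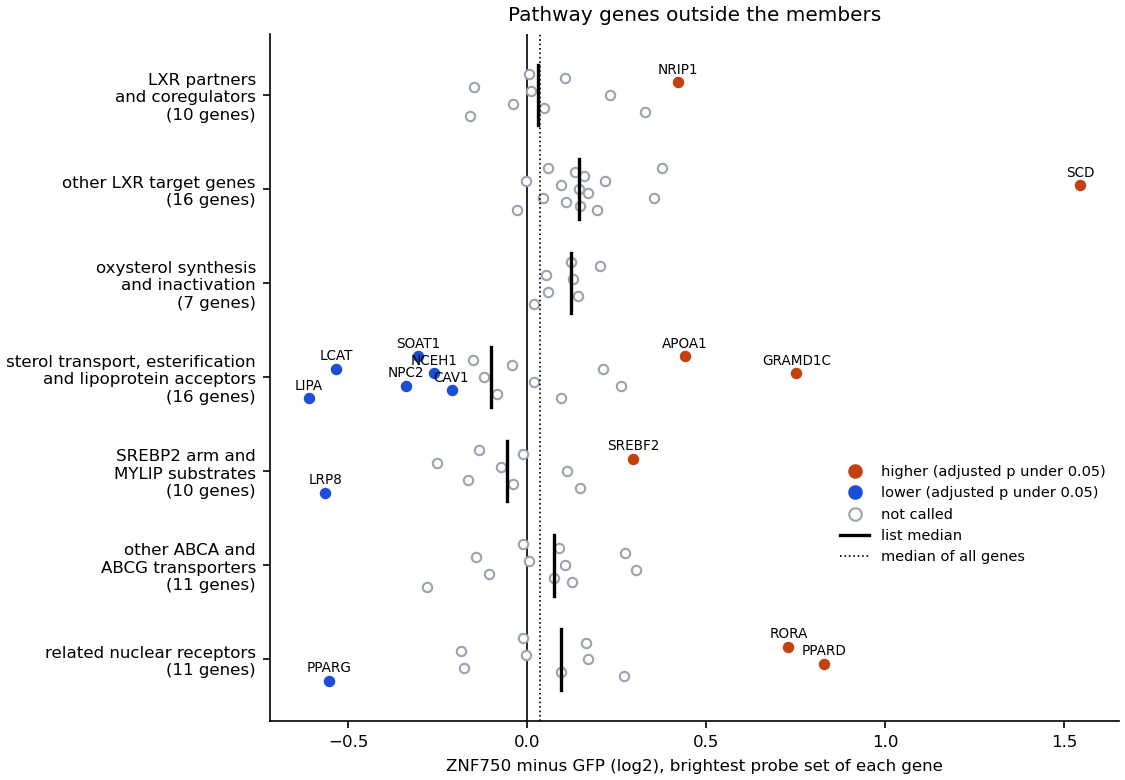
ZNF750-labelled minus GFP difference on the log2 scale of each gene in the 7 pathway lists, with the list median (thick line) and the median of all 19775 genes (dotted line); filled orange points were called higher and filled blue points lower. SCD lies farthest to the right at 1.54, and the sterol transport list holds 6 of the 8 blue points.

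The genes with array profiles most like that of ABCA1 203505_at were sought by Euclidean distance between profiles centred per gene over the 4 arrays, leaving out members. The nearest was FLG, encoding filaggrin of the cornified layer, at a distance of 0.15, with a rise of 1.74 ± 0.12 (3.34-fold). COL15A1, a basement membrane collagen, followed at 0.22 (1.73 ± 0.17) and the long noncoding RNA WAKMAR2 at 0.31 (1.96 ± 0.11). FLG and WAKMAR2 were called in each of the 10 settings in which they could be tested, and COL15A1 not without GFP replicate 1 or GFP replicate 2. A rise near that of ABCA1 follows from how these genes were picked, so their rises and calls are no separate result. With 4 arrays such a likeness describes these arrays alone.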

How the data were processed

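RMA was applied by the authors, per the submitters' processing notes (version not given in the sources used here). The deposited values are log2 intensities per probe set; RMA corrects background, quantile normalises and summarises probes. Symbols came from the platform annotation, in which 41091 probe sets carry 1 symbol, 1801 several and 11721 none. The 62 control probe sets were left out. The contrast was estimated in R 4.3.3 with limma 3.58.1 (lmFit, eBayes with an intensity trend, 2 residual degrees of freedom) over 54613 probe sets for members and over 19775 genes, each by its brightest probe set with 1 symbol, for the lists. The number of arrays limits precision: an exact two-sided permutation test of 2 against 2 arrays cannot go below p = 0.333 and was not used. The fit was tested on simulated data in which spreads were shuffled over genes. Such data hold no intensity trend, so they do not test that part of the fit. Members and lists were chosen with earlier results of these data known. Named list genes are the called genes of each list up to the 4 largest differences, the 2 largest where fewer were called, the brightest, and 7 fixed by name, of which 2 are not reported here; 13 list genes were not analysed here. Motifs were searched in RefSeq windows with Python 3.11.15.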

Additional observations from a re-analysis of the deposited data

How the results depend on the processing

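Called counts moved more with the arrays than with the other settings. Leaving out 1 array at a time gave 0 to 6 member probe sets called higher (7 with all arrays) and 0 called lower, 1 to 4 pathway genes higher (7) and 0 to 6 lower (8), and 59 to 703 genes higher (1541) and 58 to 1155 lower (2013). Each such fit leaves an arm with 1 array whose spread is assumed from the other group. Without an intensity trend in the variance prior, 5 pathway genes were lower, and 713 genes were higher and 782 lower. With the brightest probe set free of shared-probe suffixes, 1010 genes were higher and 1339 lower. Lower genes made up 56.6% of the calls, against 44.1% under cyclic loess and 43.3% under a second quantile normalization, a setting chosen after seeing the data. The mean of probe sets gave 60.5%.

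Labels do not say that equal replicate numbers mark a shared culture, and deviations of same-numbered arrays correlated at 0.16 over genes. A fit with the replicate block called 1676 genes higher and 2291 lower, and it ended no call of a member probe set or list gene. Apart from fits with an array left out, member probe sets called higher numbered 6 or 7. No called value changed sign in any alternative run on the members. Single-gene differences that moved beyond 1 SD were those of ABCA1 (0.90, mean of probe sets), MYLIP (0.64, mean of probe sets; 0.24 without shared-probe suffixes; 1.24 and 1.26 under cyclic loess and second quantile normalization) and ABCG1 (-0.01 and -0.09 under the same choices of probe set). Detection calls were not used, so whether a dim probe set lies above background is not known.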
